A study of Canis lupus familiaris with 58 samples.

Results

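The B-cell receptor chains and the first enzymes and adaptors downstream of them were followed across 58 dogs with B-cell lymphoma. The 10 genes were chosen by name, as the 2 signalling chains of the receptor (CD79A and CD79B), 4 proximal kinases (BTK, SYK, LYN and BLK), the adaptor BLNK, the phospholipase PLCG2 and the inhibitory co-receptors CD22 and CD72. All 10 of 10 were named on the array, among 15115 genes in all, by 16 probe sets, of which 4 genes had 1 and 6 genes had 2. For a gene with a pair of probe sets the one of higher mean level was used, and the other served as a check.

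The animals were client-owned pets, sampled before treatment, with tumours typed as B-cell by flow cytometry or immunohistochemistry, and total RNA was hybridised to Affymetrix canine expression arrays with 1 array per dog. A fine needle aspirate was taken from 19 dogs, whose histological diagnosis is given as unknown, and lymph node tissue from 39 dogs, of which 7 were marginal zone lymphoma (MZL) and 32 diffuse large B-cell lymphoma (DLBCL). The status of the immunoglobulin heavy chain variable region (IGHV) was static in 26 dogs, ongoing in 27 and ND, which the labels do not spell out, in 5. Static dogs comprised 7 aspirates, 1 MZL node and 18 DLBCL nodes, and ongoing dogs 11 aspirates, 4 MZL nodes and 12 DLBCL nodes. Each sample was 1 dog, and no group without lymphoma was analysed here.

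The B-cell antigen receptor is a surface immunoglobulin held by the CD79A and CD79B chains, whose cytoplasmic tails carry the signalling motifs. When antigen clusters the receptor, Src-family kinases such as LYN and BLK phosphorylate these tails, SYK docks on them, and SYK phosphorylates BLNK, which brings BTK and PLCG2 together so that PLCG2 is activated and calcium is released. CD22 and CD72 recruit phosphatases that restrain this cascade, and BTK is a drug target in human B-cell lymphoma.

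Values are log2 intensities as the authors deposited them, so a difference of 1 is a doubling. Array medians lay between 7.08 and 7.20. The mean correlation of an array with the others had a median of 0.972 and was lowest, at 0.941 and 0.952, in an ongoing aspirate (dog 12) and a static aspirate (dog 42). The difference between 3' and 5' control probe sets, a measure of RNA degradation, reached 3.77 in a static DLBCL node (dog 41) and 1.95 in dog 12, while the next highest was 0.81. Of 8 B-cell markers 6 were named on the array, and MS4A1, which encodes CD20, had a median of 12.73 and a lowest value of 6.96 in a static DLBCL node (dog 22), where CD37 stood at 12.74. PAX5, the transcription factor that defines the B lineage, ranged only between 6.89 and 7.60. Its mean of 7.21 was close to the array medians and above that of 40.3% of all genes, and its SD was 0.13. Whether this probe set follows PAX5 RNA was not tested, so its narrow range is no measure of steady B-cell content. Because these are bulk samples, fewer tumour cells and less RNA per cell cannot be told apart.

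The 2 receptor chains varied widely among dogs. CD79A ranged over 6.37 to 10.86 with a median of 8.67, and CD79B over 7.98 to 12.53 with a median of 10.82. These ranges correspond to a 22.4-fold and a 23.5-fold spread between the lowest and the highest dog. Their standard deviations (SD, n = 58) were 0.97 and 1.05, larger than those of 98.1% and 98.5% of all genes, where the median SD was 0.25. The lowest value of both chains was in dog 42.

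The inhibitory co-receptors were as variable. CD22, a sialic acid-binding lectin, ranged over 6.63 to 10.81 with a median of 8.43 and an SD of 0.92. CD72, which carries an inhibitory motif in its tail, ranged over 7.27 to 11.84 with a median of 10.43 and an SD of 1.07. These SDs exceeded those of 97.7% of all genes for CD22 and 98.7% for CD72.

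With the chosen probe sets the intracellular members spread less. BTK, the Tec-family kinase, ranged over 11.15 to 13.09 (median 12.59, SD 0.36). SYK, the kinase that binds the phosphorylated chains, ranged over 10.18 to 12.59 (median 11.60, SD 0.39). LYN, a Src-family kinase that also serves the inhibitory arm, ranged over 10.97 to 12.66 (median 11.79, SD 0.33).

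BLK, the B-lineage Src-family kinase, was the most variable kinase with the chosen probe sets, at 7.76 to 10.30 (median 9.38, SD 0.52). The adaptor BLNK ranged over 11.17 to 13.19 (median 12.39, SD 0.30), and the calcium-releasing phospholipase PLCG2 over 10.62 to 12.04 (median 11.32, SD 0.35). The spread of these 6 genes between the lowest and highest dog was 2.68-fold for PLCG2 to 5.80-fold for BLK. The SDs depend on the probe set chosen. Second probe sets had larger SDs, at 0.79 for SYK, 0.71 for BLNK, 0.58 for PLCG2, 0.51 for LYN and 0.47 for BTK.

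**Figure D1:**
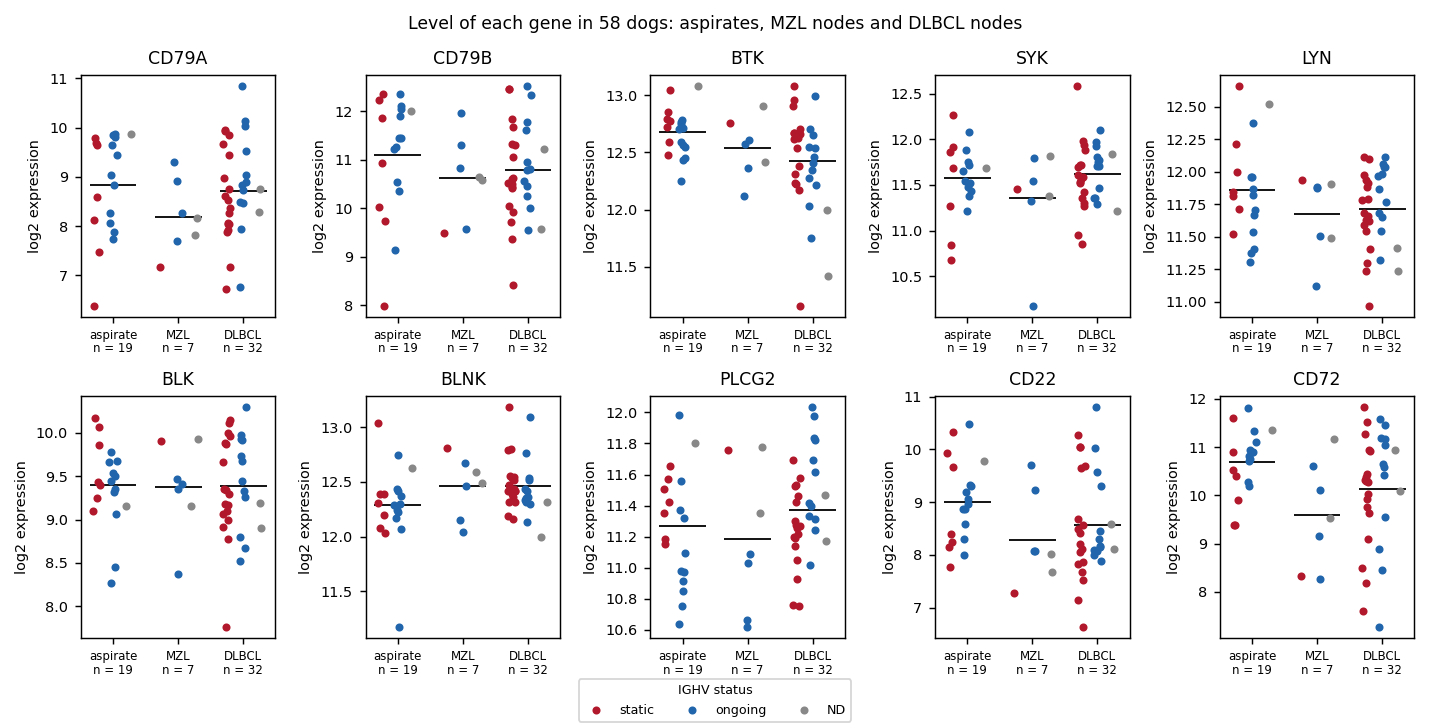
Log2 expression of each gene (y axis) in each of 58 dogs, by aspirate, MZL node and DLBCL node (x axis), with points coloured by IGHV status and a line at the group mean. Groups overlap for all 10 genes, and CD79A, CD79B, CD22 and CD72 cover over 4 log2 units each.

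The second probe sets tracked the first closely for CD22, with a Pearson r of 0.98 across 58 dogs, for BTK at 0.96, for LYN at 0.87 and for SYK at 0.76. They did not for PLCG2 at 0.31 and BLNK at 0.13, so statements on these 2 genes hold only for the probe set named by the rule. The second PLCG2 probe set had r = 0.70 with CD22, 0.51 with SYK, 0.50 with CD79B, 0.48 with BLK and 0.45 with CD79A, where the chosen one had -0.20, 0.28, -0.08, 0.17 and -0.11. The second BLNK probe set had r = -0.01 with BLK and 0.13 with LYN, where the chosen one had 0.47 and 0.37.

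CD79A, CD79B and CD22 rose and fell together from dog to dog, SYK went with them, and CD72 went with none of the others. Of 45 pairs, 16 passed an adjusted permutation p of 0.05 (Benjamini-Hochberg over the 45 pairs), and all 16 were positive. The share of pairs of other genes that would pass was not counted, so whether 16 of 45 is unusual on these arrays was not tested. CD79A and CD79B had a Pearson r of 0.83 and a Spearman rho of 0.79, each with p = 1e-05, the smallest that 100000 permutations can give, and adjusted p = 0.000112 for r. The pair's r was 0.85 within aspirates, 0.81 within lymph node and 0.81 without the 2 dogs farthest from the median of CD79A.

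CD22 followed both chains. Its r was 0.77 with CD79B (rho 0.80) and 0.76 with CD79A (rho 0.75), both with a permutation p of 1e-05 and an adjusted p of 0.000112. Within aspirates CD22 and CD79B had r = 0.81, and within lymph node r = 0.76. The second CD22 probe set gave 0.78 with each chain.

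SYK, which docks on the chains, had r = 0.66 with CD79B (rho 0.63, adjusted permutation p = 0.000112), r = 0.50 with CD22 (rho 0.45, adjusted p = 0.00045) and r = 0.43 with CD79A (rho 0.41, adjusted p = 0.00335). The second SYK probe set gave a higher r with each, namely 0.79 with CD79B, 0.69 with CD22 and 0.56 with CD79A. The relation of SYK with CD79A passed within aspirates (r = 0.59, adjusted p = 0.0324) and did not within lymph node (r = 0.35, adjusted p = 0.0836).

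**Figure D2:**
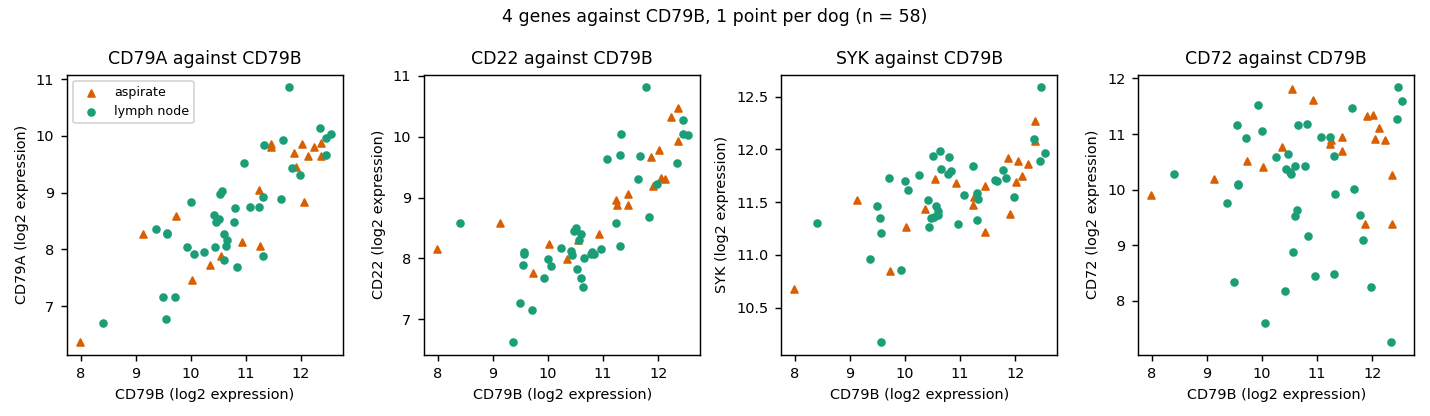
CD79A, CD22, SYK and CD72 (y axes, log2 expression) against CD79B (x axis, log2 expression), 1 point per dog, with triangles for aspirates and circles for lymph node. CD79A and CD22 lie along a band with r of 0.83 and 0.77, while CD72 has r = 0.08.

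Several pairs of the remaining kinases and adaptors also passed. BTK had r = 0.52 with BLK (rho 0.48) and r = 0.50 with LYN (rho 0.60), each with an adjusted permutation p of 0.00045. BLK had r = 0.47 with BLNK (rho 0.41, adjusted p = 0.00118), which was 0.17 with the mean of the BLNK probe sets and -0.01 with the second one. LYN had r = 0.41 with PLCG2 (rho 0.35), r = 0.37 with BLNK and r = 0.37 with BLK. Within lymph node none of the 4 pairs with LYN passed, at r = 0.40 with BTK (adjusted p = 0.0539), 0.35 with BLK (adjusted p = 0.0835), 0.29 with PLCG2 (adjusted p = 0.182) and 0.27 with BLNK (adjusted p = 0.208).

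With the chosen probe sets none of BTK, LYN, BLNK and PLCG2 passed with CD79A, where r lay between -0.11 and -0.06, but the second PLCG2 probe set had r = 0.45 with it. BTK and LYN were closer within aspirates, at r = 0.86, than within lymph node, at 0.40, and BLK and BLNK were closer within lymph node, at 0.66, than within aspirates, at 0.25; these differences between specimens were not tested. With the 3' minus 5' difference, BTK had r = -0.56 and BLK r = -0.49 across 58 dogs, given without a test. Without the 2 arrays with the highest such difference, BTK and BLK had r = 0.38 (adjusted permutation p = 0.0140), and 14 of 45 pairs passed.

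BLK also passed with CD79B (r = 0.33, adjusted permutation p = 0.0353) and CD22 (r = 0.34, adjusted p = 0.0243). Without those 2 arrays neither passed, at r = 0.23 (adjusted p = 0.221) and 0.26 (adjusted p = 0.150). CD72 passed with none of the 9 other genes. Its highest r was 0.16 with CD22, and its lowest -0.13 with BLNK.

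**Figure D3:**
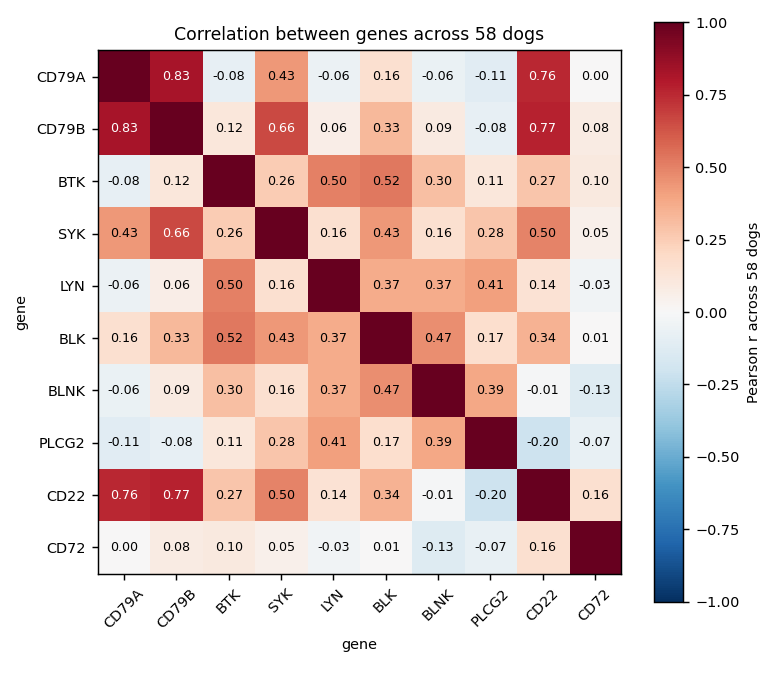
Pearson r across 58 dogs for each pair of the 10 genes (both axes list the genes), with blue for negative and red for positive values. CD79A, CD79B and CD22 form a block at 0.76 to 0.83, and the row of CD72 stays between -0.13 and 0.16.

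The number of pairs that passed depends on which probe set stands for a gene. With the mean of each gene's probe sets 22 of 45 pairs passed, and PLCG2 with CD22 moved to r = 0.46, against r = -0.20 with the chosen probe set. Within lymph node 9 pairs passed and within aspirates 10.

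Over the whole array, the genes with the pattern most like each member were sought by Pearson r over 58 dogs, as a description. CD79A was closest to SPI1 (r = 0.88), the gene of the transcription factor PU.1, to PFN1 (0.88), an actin-binding profilin, and to C15H1orf50 (0.88). SPI1 was also the closest gene to CD79B (0.88), followed by CNN2 (0.88) and MAF1 (0.88). CD22 was closest to RNF167 (0.88), SMYD5 (0.87) and BRMS1 (0.87).

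For the other members the closest gene was further away. SYK was closest to RBM38 (0.69), CD79B (0.66) and SASH3 (0.65), and CD79B was the only member among the 3 most alike genes of another. BTK was closest to GPBP1L1 (0.63), HIRA (0.62) and SHOC2 (0.62), and LYN to PEX2 (0.65), SLC38A9 (0.64) and DOCK11 (0.63). BLK was closest to CASP10 (0.65), GPBP1L1 (0.64) and GRK3 (0.63), so that GPBP1L1 stood in the list of both BTK and BLK. BLNK was closest to ARHGAP15 (0.65), ARPC5 (0.64) and TXNL4B (0.62), and PLCG2 to TMEM131 (0.72), PDE8A (0.65) and LRCH1 (0.59). For CD72 the highest r with any gene was 0.47, with FGD4, followed by PSRC1 (0.44) and VPS41 (0.43). The median r of a member with all genes lay between -0.12 and -0.01.

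Marker scores, the mean of centred log2 values over each list, were set against the members in 40 relations. The B-cell score, which holds none of the members, rose with 5 of them. Its r was 0.68 with CD79B (rho 0.78, adjusted permutation p = 0.0002), 0.61 with CD22 (rho 0.66, adjusted p = 0.0002), 0.48 with CD79A (rho 0.60), 0.48 with SYK (rho 0.59) and 0.47 with BLK (rho 0.40), the last 3 with adjusted p = 0.00187. BLK did not pass without the 2 arrays with the highest 3' minus 5' difference (r = 0.29, adjusted p = 0.119). Without the 2 dogs farthest from the median of the member, the 5 values of r lay between 0.34 and 0.73. Dog 22, where MS4A1 was 6.96, had the lowest B-cell score, at -1.02. It was not among the dogs left out, and r without it was not computed.

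The stroma score, made of 10 of 10 collagen and fibroblast genes, fell with CD22 (r = -0.44, adjusted permutation p = 0.00251), CD79B (r = -0.40, adjusted p = 0.0087) and SYK (r = -0.36, adjusted p = 0.0280). Within lymph node r was -0.63, -0.62 and -0.49 for these genes, and within aspirates -0.05, -0.09 and -0.09, a difference that was not tested. PLCG2 fell with the T-cell score (r = -0.46, rho = -0.50, adjusted permutation p = 0.00187), with r = -0.23 within aspirates and -0.60 within lymph node. This was not particular to PLCG2. Within lymph node SYK (r = -0.51, adjusted permutation p = 0.0115), BLK (-0.46, adjusted p = 0.0136) and BLNK (-0.41, adjusted p = 0.0392) also passed with it. Within aspirates their r was 0.40, 0.34 and -0.02. By rank BLNK passed over all 58 dogs as well (rho = -0.46, adjusted permutation p = 0.0022). No member passed with the macrophage score over all 58 dogs, where r lay between -0.26 and 0.20.

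The first comparison asked whether the receptor module differed by IGHV status. None of the 10 genes differed between static and ongoing dogs by limma with tissue and diagnosis as strata, among 0% of all genes called at an adjusted p under 0.05. At an unadjusted p under 0.05 the members numbered 0, against 7.13% of all genes (1077), and rank-sum tests, run on 48 dogs from aspirates and DLBCL nodes, called 0 genes and found 1 of 10 members, BTK, at p = 0.0310, among 550 of 15115 genes at an unadjusted p under 0.05.

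The largest differences were in the variable surface genes. CD79A had a lowest, median and highest value of 6.37, 8.45 and 9.96 in static dogs, against 6.77, 8.89 and 10.86 in ongoing dogs. The groups overlapped across nearly their whole range, and the difference was -0.48 ± 0.27 (SE; 95% interval -1.03 to 0.07; limma adjusted p = 0.726). CD79B differed by -0.43 ± 0.30, CD72 by -0.36 ± 0.29 and CD22 by -0.26 ± 0.26, none past the threshold.

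BTK had 11.15, 12.66 and 13.09 in static dogs as the lowest, median and highest, against 11.75, 12.54 and 13.00 in ongoing dogs. Its difference was 0.14 ± 0.09 (limma p = 0.129, adjusted p = 0.753). The lowest static dog was dog 41, whose array had the highest 3' minus 5' difference, and without it BTK differed by 0.18 (limma p = 0.0118, before correction). Of the 53 fits leaving out 1 dog, this was the only 1 with p under 0.05 for BTK. CD79A also had 1 such fit, without dog 13, at -0.60 (limma p = 0.0280). No member passed adjustment in any of these fits.

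The other 5 genes lay close to 0. BLK differed by 0.11, BLNK by 0.09, LYN by 0.01, PLCG2 by -0.02 and SYK by -0.08. The 95% intervals of these 5 genes ended no further out than -0.30 and 0.42. The members' median difference was -0.05, with 4 higher and 6 lower in static dogs, and the median over all genes was -0.0047. The B-cell score, which moved with CD79A and CD79B, was -0.07 ± 0.33 in static dogs and 0.08 ± 0.26 in ongoing dogs (SD, n = 26 and 27). With it as a covariate the difference was -0.27 for CD79A, -0.10 for CD79B, -0.31 for CD72 and -0.0058 for CD22. It grew for BTK (0.14 to 0.19), BLK (0.11 to 0.24), BLNK (0.09 to 0.15) and LYN (0.01 to 0.05), and was 0.017 for SYK and -0.0099 for PLCG2. In that fit 1 of 10 members had an unadjusted limma p under 0.05, against 1795 of 15115 genes, and none passed adjustment.

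PLCG2 had status differences of opposite sign in aspirates and in DLBCL nodes, none of which passed adjustment. In aspirates its lowest, median and highest values were 11.15, 11.42 and 11.66 in static dogs, against 10.64, 10.98 and 11.99 in ongoing dogs. In DLBCL nodes they were 10.75, 11.26 and 11.70 in static dogs, against 11.02, 11.52 and 12.04 in ongoing dogs. Static dogs thus had the higher median in aspirates and the lower one in DLBCL nodes, with overlap in both. In MZL nodes the 1 static dog, at 11.76, lay above the 4 ongoing dogs, at 10.62 to 11.09, the same direction as in aspirates.

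Within aspirates the PLCG2 difference was 0.28 ± 0.15 (limma p = 0.0909, adjusted p = 0.447), and within DLBCL nodes -0.31 ± 0.11 (p = 0.00676, adjusted p = 1.00). The interaction of status with specimen, the status difference in aspirates minus that in all lymph nodes, was 0.46 ± 0.20 (p = 0.0233, adjusted p = 0.484), so it failed the correction over all genes. It was between 0.41 and 0.58 when each dog was left out in turn and 0.39 without the 2 arrays of lowest correlation, where no member had an unadjusted p under 0.05. The second PLCG2 probe set gave 0.76 (p = 0.0300, adjusted p = 0.510).

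No member was called for this interaction, among 0.0132% of all genes (2 genes). At an unadjusted p under 0.05 PLCG2 was 1 of 10 members, against 9.1% of all genes, so the members' share was near the background. LYN had an interaction of 0.35 ± 0.18 (p = 0.0602) and BLK of 0.34 ± 0.32 (p = 0.287). The T-cell score, with which PLCG2 fell, was -0.06 ± 0.27 in static dogs (range -0.66 to 0.71) and 0.11 ± 0.46 in ongoing dogs (range -1.15 to 1.15), with 10 of 10 markers measured, and its part in the PLCG2 difference was not tested.

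CD72 had 9.39, 10.40 and 11.61 as the lowest, median and highest value in static aspirates, against 10.19, 10.90 and 11.81 in ongoing aspirates. The difference was -0.58 ± 0.28 (limma p = 0.0483, adjusted p = 0.348). In DLBCL nodes it was -0.14 ± 0.44 (p = 0.758), and the interaction for CD72 was -0.34 ± 0.61 (p = 0.581).

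The second comparison set aspirates against lymph node. Diagnosis is unknown for aspirates, so specimen and diagnosis cannot be told apart here. No member passed the adjusted threshold, at which 0.119% of all genes (18 genes) were called by limma and 0 by rank-sum tests. At an unadjusted p under 0.05 there were 3 of 10 members by limma (CD72, BTK and BLNK), against 11.8% of all genes. Rank-sum tests, which found 1623 genes, also had 3 of 10, but these were BTK, BLNK and CD22. CD72 had a rank-sum p of 0.0644.

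CD72 had 9.39, 10.82 and 11.81 as the lowest, median and highest value in aspirates, against 7.27, 10.29 and 11.84 in lymph node. The aspirates lacked the low values seen in nodes, and the difference was 0.66 ± 0.28 (limma p = 0.0233, adjusted p = 0.333). BTK had 12.25, 12.72 and 13.09 in aspirates, against 11.15, 12.54 and 13.09 in lymph node. Here too the highest values matched and the low values were in nodes, with a difference of 0.23 ± 0.10 (p = 0.0178, adjusted p = 0.311).

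BLNK had 11.17, 12.29 and 13.04 in aspirates, against 11.99, 12.42 and 13.19 in lymph node. The difference was -0.17 ± 0.08 (limma p = 0.0405, adjusted p = 0.394), the lowest aspirate was dog 12, and without it the difference was -0.11 (p = 0.136). The second BLNK probe set went the other way, at 0.18 ± 0.19. CD22 differed by 0.49 ± 0.25 (p = 0.0540), CD79B by 0.35 ± 0.29, CD79A by 0.22 ± 0.27 and LYN by 0.15 ± 0.09.

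PLCG2 at -0.07, BLK at 0.01 and SYK at 0.0004 made up the rest. In all 8 of 10 members had the higher mean in aspirates, against 46.9% of all genes, and the members' median difference was 0.19, against -0.0063 over all genes. The members are not independent, because CD79A, CD79B and CD22 rose and fell together. Leaving out 1 dog turned SYK in 28 of 58 fits and BLK in 12. A shift of the members as a set was not tested. Without dog 42, the lowest of both receptor chains, CD79B differed by 0.52 (p = 0.0580) and CD79A by 0.36 (p = 0.166).

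Marker scores of other cell types overlapped between specimens and were not tested between them. The T-cell score was 0.18 ± 0.42 in aspirates (range -0.87 to 1.15) and -0.09 ± 0.34 in lymph node (range -1.15 to 0.89). The granulocyte score, with 7 of 7 markers, was 0.20 ± 0.72 in aspirates (range -1.01 to 1.80) and -0.10 ± 0.55 in lymph node (range -1.004 to 1.02). The erythroid score, from 3 of 7 markers, was 0.13 ± 0.29 in aspirates (range -0.26 to 0.70) and -0.06 ± 0.14 in lymph node (range -0.42 to 0.17). The macrophage score was -0.03 in aspirates and 0.02 in lymph node, and the stroma score 0.04 in aspirates and -0.02 in lymph node. The part of these scores in the members' differences was not tested. The B-cell score was 0.06 ± 0.29 in aspirates and -0.03 ± 0.29 in lymph node, and with it as a covariate CD72 differed by 0.62, CD22 by 0.32, BTK by 0.20, CD79B by 0.13 and CD79A by 0.08. In the same fit LYN differed by 0.12, BLNK by -0.20, PLCG2 by -0.08, BLK by -0.06 and SYK by -0.06.

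The third comparison set MZL against DLBCL within lymph node. With 7 MZL dogs no member passed, at 0% of all genes by limma, and at an unadjusted p under 0.05 there were 0 members, against 1.16% of all genes (176). Rank-sum tests also found 0 members and called 0 genes, with 231 at an unadjusted p under 0.05.

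SYK, the kinase docking on the receptor chains, had 10.18, 11.46 and 11.82 as the lowest, median and highest value in MZL, against 10.86, 11.66 and 12.59 in DLBCL. The difference was -0.26 ± 0.16 (limma p = 0.105, adjusted p = 1.00), and it rested on the lowest MZL dog, dog 43: without it the difference was -0.06 (p = 0.655).

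CD79A had 7.16, 8.17 and 9.31 in MZL, against 6.71, 8.67 and 10.86 in DLBCL, a difference of -0.53 ± 0.38 (95% interval -1.29 to 0.24). CD72 had 8.26, 9.53 and 11.17 in MZL, against 7.27, 10.35 and 11.84 in DLBCL, a difference of -0.54 ± 0.47 (95% interval -1.49 to 0.42). All MZL values of both genes lay within the range of the DLBCL dogs. CD22 differed by -0.29, PLCG2 by -0.19, CD79B by -0.16, LYN by -0.04, BLK by -0.01, BLNK by 0.0011 and BTK by 0.11. Leaving out 1 dog moved CD22 to between -0.52 and -0.12. With IGHV status as a covariate, which leaves out ND dogs, CD72 differed by -0.91, PLCG2 by -0.42, SYK by -0.39 and CD79B by -0.33. PLCG2 was then the 1 member of 10 at an unadjusted limma p under 0.05, against 224 of 15115 genes. The smallest adjusted p among the members was 1.00. In all 8 of 10 members had the lower mean in MZL, where 46.1% of all genes had the higher mean. These members too are not independent, BLK turned in 12 of 39 fits leaving out 1 dog, and a shift of the set was not tested.

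**Figure D4:**
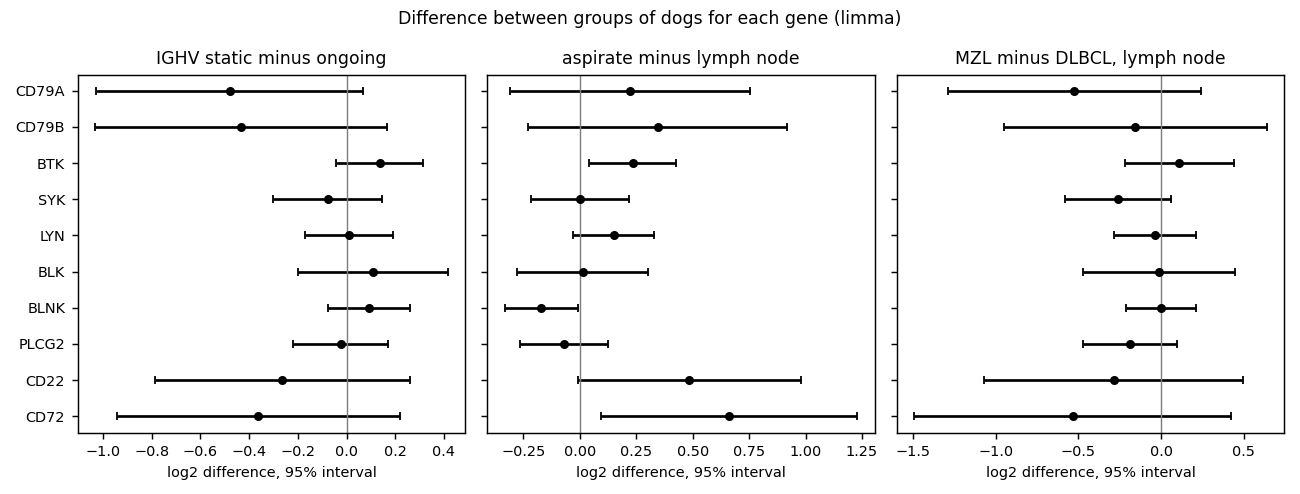
Log2 difference (x axis) with its 95% interval for each gene (y axis), for static minus ongoing, aspirate minus lymph node, and MZL minus DLBCL within lymph node. Intervals of the surface genes are wide, and those of BTK, BLNK and CD72 in the middle panel leave out 0 before any correction over genes.

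Outcome was analysed with Cox models stratified by specimen, reading an indicator of 1 as an event. Progression-free survival (PFS) was known for 55 dogs with 47 events and overall survival (OS) for 56 dogs with 41 events, at times from 24 and 36 up to 1130, in a unit the labels do not give. No member was called, at 0% of all genes for PFS and 0.00662% (1 gene) for OS. At an unadjusted p under 0.05 there were 0 members for either endpoint, against 2.83% of all genes for PFS and 3.99% for OS.

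BLNK, the adaptor, had the largest hazard ratio of the 10. Per SD of expression it was 1.40 (95% interval 0.98 to 2.00, p = 0.0687, adjusted p = 1.00) for PFS and 1.40 (0.97 to 2.03, p = 0.0758, adjusted p = 1.00) for OS, a higher hazard with higher BLNK. Its second probe set gave ratios of 1.02 and 1.03 per log2 unit, against 3.09 and 3.10 with the first, so the 2 probe sets disagree. The PFS value for BLNK reached p = 0.0284 without dog 12, before correction.

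BLK had hazard ratios per SD of 0.87 (0.61 to 1.23) for PFS and 0.82 (0.57 to 1.17) for OS, and CD22 had 0.89 (0.64 to 1.22) for PFS. The other members lay between 0.94 and 1.11 for PFS, and CD79B had 1.12 (0.81 to 1.55) for OS. Over both endpoints and all 10 genes the 95% intervals lay between 0.57 and 2.03 per SD.

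When dogs were instead divided at a time of 180, BLK was lower in the 14 dogs that died before it than in the 41 that lived longer, by -0.36 ± 0.14 (limma p = 0.0151, adjusted p = 0.655). For PFS, CD22 was lower in the 22 early dogs than in the 32 late ones, by -0.48 ± 0.24 (p = 0.0511, adjusted p = 0.891). Neither passed after adjustment over all genes.

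**Figure D5:**
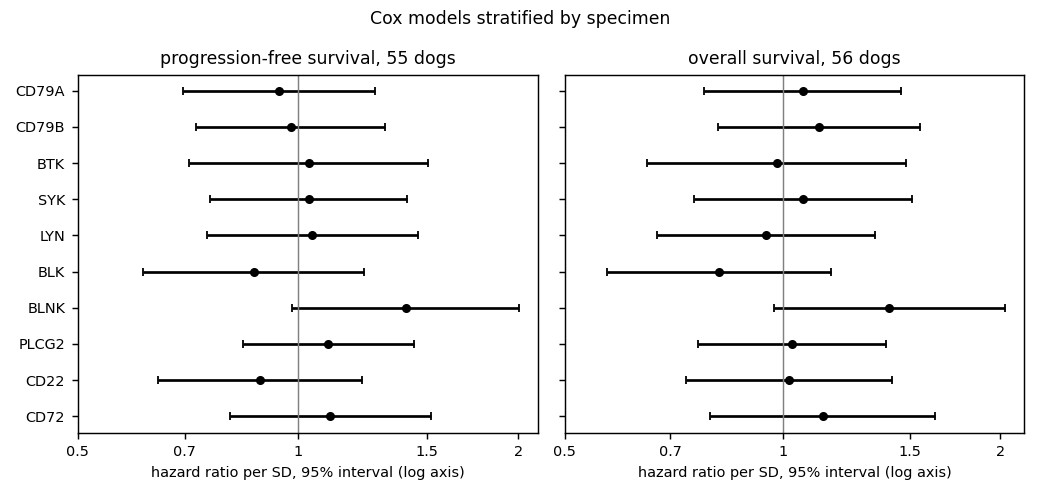
Hazard ratio per SD of expression (x axis, log scale) with its 95% interval for each gene (y axis), for PFS in 55 dogs and OS in 56 dogs. All 20 intervals include 1, and BLNK has the highest ratio in both panels.

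The wider receptor pathway was read from a list of 82 further genes, of which 60 were named on the array. None of the 60 passed the adjusted threshold in any of the 6 comparisons. At an unadjusted p under 0.05, 6 differed by IGHV status, 3 in each direction. They included PRKCD, a diacylglycerol-responsive kinase (0.26 ± 0.10, limma adjusted p = 0.670), DAPP1, an adaptor that binds phosphoinositides (0.42 ± 0.18, adjusted p = 0.678), and SH2B2, another adaptor (-0.24 ± 0.09, adjusted p = 0.670). This is 6 of 60, against the 7.13% of all genes given above.

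Between specimens 12 of the 60 had an unadjusted p under 0.05, with 6 higher and 6 lower in aspirates, against 11.8% of all genes. TEC, a kinase related to BTK, had the smallest p (-0.57 ± 0.19, limma adjusted p = 0.174), followed by CD5 (0.26 ± 0.09, adjusted p = 0.212), a surface protein that T cells also carry, and PTPN6 (-0.25 ± 0.09, adjusted p = 0.212), the phosphatase recruited by CD22 and CD72. None of the 60 reached an unadjusted p under 0.05 between MZL and DLBCL by limma, where the smallest p belonged to PTPN22 (-0.35 ± 0.18, p = 0.0650), a phosphatase of antigen receptor signalling, FCRLA (-0.23 ± 0.14) and CD5 (0.19 ± 0.12), each with adjusted p = 1.00.

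For the interaction 8 of 60 had an unadjusted p under 0.05, 7 of them positive like PLCG2, against 9.1% of all genes. RASGRP3, which passes the diacylglycerol signal made by PLCG2 on to Ras, had 0.96 ± 0.31 (limma adjusted p = 0.341). ORAI1, the pore of the store-operated calcium channel, had 0.38 ± 0.13 (adjusted p = 0.348), and FGR, a Src-family kinase known best from myeloid cells, 1.17 ± 0.41 (adjusted p = 0.378). The median interaction over the 60 genes was 0.14, against 0.07 over the 10 members and -0.0062 over all genes. For outcome 3 of 60 had an unadjusted Cox p under 0.05 for PFS, against 2.83% of all genes, and 2 of 60 for OS, against 3.99% of all genes. Each had adjusted p = 1.00. DAPP1 had hazard ratios per log2 unit of 1.93 for PFS and 2.24 for OS, and PAG1, an adaptor that holds the kinase CSK at the membrane, 0.72 and 0.67. The third was STIM1, the calcium sensor of the store, for PFS (5.13) and PECAM1, an inhibitory receptor, for OS (1.34, p = 0.0783).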

How the data were processed

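The authors deposited log2 expression values for 43035 probe sets on 58 arrays, summarised with RMA in Affymetrix Expression Console per the submitters' processing notes. Versions, scan dates and batches are not given in the sources used here. RMA corrects background and equalises distributions between arrays, so a shift shared by all genes cannot be seen. Probe sets were named through GEO's platform annotation: 29254 had 1 symbol, 439 several and 13167 none, beside 175 control probe sets. Symbols were checked through RefSeq for 27680 probe sets, with 0 changed. One probe set per gene (highest mean) left 15115 genes, with no filter on low values. The number of arrays limits the precision.

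Differences were fitted with limma 3.58.1 (lmFit and eBayes) in R 4.3.3 and hazards with survival 3.8.3 (score test), each over all genes with Benjamini-Hochberg adjustment. IGHV status was fitted with 3 strata (aspirate, MZL node, DLBCL node), leaving out ND dogs. Correlations used 100000 permutations in Python 3.11.15 with scipy 1.17.1. Tests were checked on simulated data. All p-values measure the spread between dogs. The members and lists were chosen with earlier results of these data known. All 10 members are named, with the 3 genes of highest r to each (LOC symbols left out), and, as none of the pathway list passed, its 3 genes of smallest p in each comparison. Alternatives covered other probe sets, quantile normalization, filters, covariates, subsets, leaving out dogs, and, chosen after seeing the data, leaving out the 2 arrays with the highest 3' minus 5' difference.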

Additional observations from a re-analysis of the deposited data

Results flagged for a closer look

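Dixon's criterion was applied to 3 groups of dogs (7 MZL, 7 static aspirates and 4 ongoing MZL) for each of the 10 genes. In 3 of these 30 sets of values 1 dog stood apart from the others, which chance alone meets in about 1 in 20 independent sets. The sets are not independent, because the ongoing MZL dogs are also among the MZL dogs and dog 43 appears more than once. SYK was 10.18 in MZL dog 43, where the next lowest of the 7 MZL dogs was 11.33 and the highest 11.82. BLK was 8.37 in the same dog, where the next lowest of the 4 ongoing MZL dogs was 9.35 and the highest 9.46. BLNK was 13.04 in dog 42, where the next highest of the 7 static aspirates was 12.39 and the lowest 12.03.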

How the results depend on the processing

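The count of members called stayed at 0 in all 6 comparisons under every alternative in which it was counted. It was not counted for PFS and OS when leaving out 1 dog, where no adjusted p was computed. Of 489 values for single members under alternatives, 450 kept their direction, and none with an adjusted p was past the threshold. These cover all 10 members for the 3 group differences, but only the 3 members of smallest p for the interaction, PFS and OS. Leaving out 1 dog also turned CD79A, CD79B, BTK, SYK and BLNK for the interaction, CD79A, CD79B, BTK, SYK, LYN and CD72 for PFS, and BTK, SYK, LYN, PLCG2, CD22 and CD72 for OS. The cause of each turn was not tested. Static minus ongoing turned for SYK with the probe set of highest variance (0.040) and the B-cell score as a covariate (0.017). It turned for LYN after quantile normalization (-0.0079), without the 2 arrays of lowest correlation (-0.050), in DLBCL nodes alone (-0.16) and without the 2 arrays of highest 3' minus 5' difference (-0.0022). Leaving out 1 dog at a time gave LYN -0.035 to 0.038 and PLCG2 -0.089 to 0.0097. BLK turned in DLBCL nodes alone (-0.10), BLNK with the mean of probe sets (-0.052) and the highest variance (-0.20), and PLCG2 with the mean of probe sets (0.052), the highest variance (0.13), aspirates alone (0.28) and no strata (0.034). Aspirate minus lymph node turned for SYK with the B-cell score (-0.056) or the 3' minus 5' difference (-0.0051) as a covariate, against DLBCL nodes (-0.047), with IGHV status as a covariate (-0.011) and without the 2 arrays of highest 3' minus 5' difference (-0.013), with -0.038 to 0.050 when leaving out 1 dog. BLK turned with the B-cell score (-0.060), with -0.029 to 0.077 when leaving out 1 dog, BLNK, whose main value had an unadjusted p of 0.0405, with the mean of probe sets (0.0056) and the highest variance (0.18), and PLCG2 with both (0.047 and 0.17). MZL minus DLBCL turned for BLNK with the mean of probe sets (-0.13), the highest variance (-0.27), the B-cell score (-0.0030), the 3' minus 5' difference (-0.0091), IGHV status (-0.023) and without the 2 arrays of highest 3' minus 5' difference (-0.0085). Leaving out 1 dog gave CD79B -0.38 to 0.034, LYN -0.080 to 0.055, BLK -0.11 to 0.15 and BLNK -0.057 to 0.070. Among the 3 members taken per endpoint, the log hazard ratio turned in aspirates alone for CD22 in PFS (0.11) and BLK in OS (0.055).

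Of the 45 pairs, 9 passed within lymph node and 10 within aspirates, against 16 over all dogs. Of the 40 relations with marker scores, 14 passed within lymph node and 3 within aspirates, against 9 over all dogs. These subsets hold fewer dogs. Among all genes, 18 were called between specimens, against 58 with the mean of probe sets, 107 with the highest variance, 57 with the B-cell score, 41 with the 3' minus 5' difference as a covariate, 37 after quantile normalization, 10 without the 2 arrays of lowest correlation, 10 without those of highest 3' minus 5' difference, 6 among genes above the median level, 6 against DLBCL nodes and 5 with IGHV status. By IGHV status 0 genes were called, against 6 in aspirates alone and 1 with the B-cell score. For the interaction 2 were called, and 1 in several alternatives, and for OS 1 was called, and 3 in lymph node alone. No paired analysis was possible because each dog gave 1 sample.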

Other observations

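CD79A, CD79B and CD22 each had a large company of genes with the same pattern across dogs. A Pearson r above 0.7 was reached with 93 genes by CD79A, 79 by CD79B and 95 by CD22, of 15114 others, and 45 genes were common to all 3. PLCG2 had 1 such gene, and the other 6 members had 0. The second principal component of all genes, which held 9.19% of the variance, had r = 0.78 with CD79B, 0.76 with CD79A, 0.60 with CD22 and 0.59 with SYK, and r = -0.11 with CD72. These measures were chosen after seeing the data.

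Dog 42, a static aspirate, was at opposite ends for different members. It ranked lowest of 58 for CD79A (6.37) and CD79B (7.98) and second lowest for SYK (10.68), while LYN (12.66) was the highest of the 58 dogs and BTK (13.05) and BLNK (13.04) each ranked 56 of 58. MS4A1 ranked 57 of 58 there, while CD37, at 11.55, was the second lowest of the 58 dogs, and the B-cell score was 0.02. The granulocyte score of dog 42, at 1.80, was the highest of the 58 dogs, and its part in these values was not tested. Dog 22, with MS4A1 at 6.96 where the next lowest dog had 10.90, had CD79A at 8.61 and CD79B at 10.42, which ranked 29 and 17 from the lowest of 58.

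In MZL nodes PLCG2 lay between 10.62 and 11.09 in the 4 ongoing dogs, against 11.76 in the 1 static dog, and at 11.35 and 11.78 in the 2 ND dogs. The ongoing dogs did not overlap the others, but the share of all genes that separate these dogs in the same way was not counted. PLCG2 was picked after its values were seen, its second probe set was not examined in these dogs, and the difference was not tested.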
